A study of Homo sapiens with 6 samples.

Results

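The 10 genes described here encode the NF-κB transcription factor subunits (NFKB1, NFKB2, REL, RELA and RELB) and a set of regulators. The regulators are inhibitors that NF-κB itself is known to induce or that hold it inactive (NFKBIA, NFKBIB, NFKBIE and TNFAIP3). NFKBIZ, which encodes a nuclear protein of the same family as the first 3, is grouped with them here. They were found by gene symbol in the deposited tables, which hold 46427 genes, and each of the 10 symbols matched 1 row. RNA was measured in K562, a human erythroleukemia cell line recorded as wild type, in 3 libraries given 0.1% DMSO as vehicle and 3 given 10 µM HR-19011, which the labels give only as a code, both for 24 h. The labels do not state how much DMSO the HR-19011 libraries received, so the compound and any difference in DMSO cannot be told apart, and whether the libraries are separate cultures is not stated either, so each p-value reflects only how far these samples spread, possibly for technical reasons. The series title links the compound to HRI, eIF2α and ATF4, and the question here is how the transcripts of these 10 genes differed between treated and vehicle cells.

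NF-κB factors work as dimers. RELA, RELB and REL carry the domains that activate transcription, whereas NFKB1 and NFKB2 encode long precursors that are trimmed to DNA-binding partners. In resting cells the classical IκB proteins, from NFKBIA, NFKBIB and NFKBIE, keep dimers in the cytoplasm until the IKK kinases mark them for destruction, and a separate arm, driven by the kinase NIK, trims the NFKB2 precursor and frees dimers with RELB. Active NF-κB is known to induce several of its own subunits and inhibitors, which makes them feedback genes in many cell types.

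Start site sequences are shown because feedback of this kind is known to act through κB sites near the start of the gene. RefSeq start windows on GRCh38.p14, each from 250 bases before to 50 bases after a start, matched 8 of the 10 genes, in 14 windows. RELB and NFKBIE had no window and were not searched. The κB consensus, a motif of G-rich and C-rich ends known by that name, was searched on both strands. In the stretches below, written 5′ to 3′ on the gene's strand, capitals mark every base inside a match, and overlapping matches run together. NFKB2, NFKBIZ and NFKBIB each had 1 further match that is not printed.
NFKB2, start 2 (chr10:102394462-102394490, + strand): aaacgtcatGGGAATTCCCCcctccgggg
NFKB2, start 2 (chr10:102394490-102394519, + strand): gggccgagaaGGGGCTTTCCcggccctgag
NFKB2, start 3 (chr10:102395674-102395703, + strand): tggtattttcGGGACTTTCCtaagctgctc
TNFAIP3 (chr6:137867188-137867217, + strand): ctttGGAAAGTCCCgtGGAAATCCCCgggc
NFKBIZ, start 1 (chr3:101827740-101827816, + strand): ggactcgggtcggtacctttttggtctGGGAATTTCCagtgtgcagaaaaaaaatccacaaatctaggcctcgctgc
NFKBIA (chr14:35404781-35404870, - strand): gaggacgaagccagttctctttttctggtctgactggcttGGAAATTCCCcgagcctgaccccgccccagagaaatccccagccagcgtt
NFKB1, start 1 (chr4:102501270-102501328, + strand): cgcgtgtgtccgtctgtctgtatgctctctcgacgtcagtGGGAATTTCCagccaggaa
REL (chr2:60881518-60881546, + strand): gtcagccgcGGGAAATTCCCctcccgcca
NFKBIB, start 2 (chr19:38899901-38899951, + strand): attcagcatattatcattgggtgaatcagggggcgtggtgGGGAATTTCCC

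Counting the first transcribed base as 0, the first matched base lay at -107, -78 and -21 in the NFKB2 stretches, -67 in TNFAIP3, -223 in NFKBIZ, -81 in NFKBIA, -49 in NFKB1, -47 in REL and -28 in NFKBIB. Of the 14 windows, 9 (64.3%) held a match, against 11.3% of all 35116 windows of this length. By gene, 7 of 8 had a match in any window, against 13.3% of 27305 genes. Neither RELA window held one. A core of the C/EBP-ATF response element, TGATGNAA on either strand, was in 0 of the 14 windows and in 3.62% of all windows. A match is a run of letters and was not measured as a bound site, and matches occurred beside genes that rose (NFKB2, TNFAIP3, NFKBIZ, NFKBIA and, by a narrow margin, REL), a gene that fell (NFKBIB) and a gene that was not called (NFKB1).

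The transcripts furthest above vehicle were TNFAIP3, RELB, NFKBIZ and NFKB2, all at least 2-fold on the log2(FPKM + 1) scale, and NFKBIE rose less, whereas RELA, REL, NFKB1 and the textbook feedback inhibitor NFKBIA differed from vehicle by at most 1.24-fold on average. NFKBIB fell. With limma on log2(FPKM + 1) and Benjamini-Hochberg adjustment over 11856 tested genes, at an adjusted p under 0.05, 8 of the 10 genes were called higher, 1 lower and 1 was not called. Of all tested genes 46.4% were called higher, 38.0% lower and 84.4% in either direction, so the number of calls is close to the background. On that scale, called changes of at least 2-fold upward were 4 of 10, against 12.0% of all tested genes, and none went at least 2-fold downward, against 6.45%. All 10 genes passed the filter, set at 1 FPKM on average across libraries, but RELB and NFKBIZ did so through the treated libraries alone, so counts that include them are descriptions, and their p-values below come from the fit of all 26374 genes not listed at 0 throughout, with no filter. Library ranges of the groups did not overlap for 9 of the 10, against 85.2% of all tested genes. The median log2 fold change was 0.56 over the 10 genes and 0.07 over all tested genes. A change in the number of expressing cells and a change in RNA per cell cannot be told apart in these bulk libraries.

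**Figure D1:**
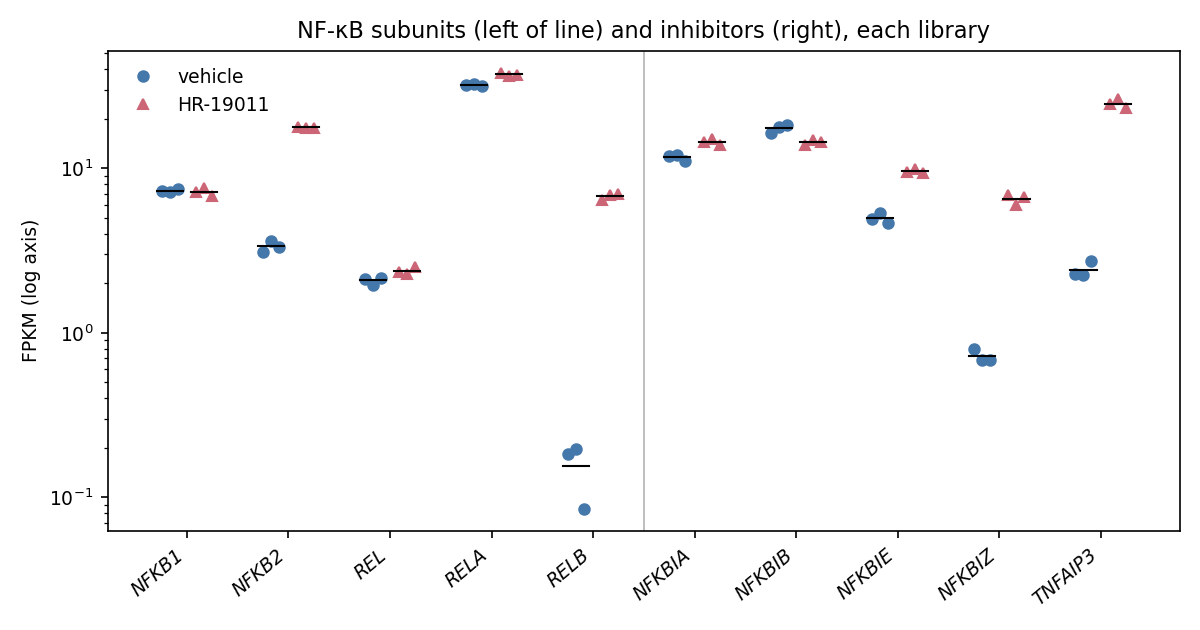
FPKM of the 10 genes in each library on a log axis, with circles for 3 vehicle and triangles for 3 HR-19011 libraries and short lines at the group means. The groups are apart for 9 genes and overlap for NFKB1, and the widest gap is that of RELB, from 0.155 to 6.74 FPKM.

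RELA, the main activating subunit of the classical arm, was listed at 32.0, 32.4 and 31.5 FPKM in vehicle and 38.1, 36.4 and 36.9 FPKM in HR-19011. The treated libraries were all above the vehicle libraries, by a mean of 1.16-fold (log2 fold change 0.21, SE 0.0305, limma adjusted p = 0.000169), and this direction turned to -0.04 after TMM scaling. RELA had the highest level of the 10 genes in both groups. It lies on chromosome 11 of GRCh38 from 65653601 to 65663857.

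NFKB1, the precursor of the most common partner of RELA, was listed at 7.26, 7.16 and 7.51 FPKM in vehicle and 7.20, 7.54 and 6.79 FPKM in HR-19011. These ranges overlapped, and the log2 fold change was -0.02 (SE 0.0467, limma adjusted p = 0.633). It was called lower after TMM scaling, at -0.25, and under quantile normalization, at -0.19. REL, an activating subunit best known from lymphocytes, had 2.14, 1.95 and 2.15 FPKM in vehicle and 2.34, 2.29 and 2.50 in HR-19011. Its groups did not overlap, but the call rests on a narrow margin (log2 fold change 0.13, SE 0.0553, limma adjusted p = 0.0483). The call was lost when any 1 library was left out and with the replicate block (limma adjusted p = 0.0678). The direction of REL reversed under TMM scaling, at -0.04, and under quantile normalization, at -0.22.

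NFKB2 and RELB encode the partners of the NIK-driven arm. NFKB2 was listed at 3.11, 3.59 and 3.34 FPKM in vehicle and 17.8, 17.6 and 17.6 FPKM in HR-19011. Every treated library was above every vehicle library, 5.28-fold on average (log2 fold change 2.10, SE 0.0476, limma adjusted p = 8.81e-10). RELB went from 0.183, 0.198 and 0.0851 FPKM in vehicle to 6.42, 6.82 and 6.98 FPKM in HR-19011. Its vehicle level is too low for a firm ratio, since depth is unknown. The log2 fold change was 2.75 (SE 0.0622, limma adjusted p = 1.24e-06 with no filter), a value that understates the change of a gene this low. NFKB2 lies on chromosome 10 from 102394110 to 102402529 and RELB on chromosome 19 from 45001464 to 45038192.

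The makeup of the Rel-family transcript pool does not depend on a factor that multiplies all values of a library, so it was computed within each library. Quantile normalization is not such a factor, and the shares were not computed under it. The summed FPKM of the 5 subunits was 44.7, 45.3 and 44.6 in vehicle and 71.8, 70.6 and 70.8 in HR-19011. RELA made up 71.6%, 71.5% and 70.6% of that sum in vehicle and 53.0%, 51.5% and 52.2% in HR-19011. NFKB2 went the other way, from 6.96%, 7.92% and 7.49% to 24.8%, 25.0% and 24.8%.
RELB went from at most 0.436% of the pool in vehicle to at least 8.95% in HR-19011. NFKB1 went from 16.3% ± 0.529 (SD, n = 3) to 10.1% ± 0.541, and REL from 4.64% ± 0.284 to 3.35% ± 0.164. For each of the 5 subunits no treated library overlapped a vehicle library, and the exact permutation p (two-sided, 3 libraries against 3) was 0.1, the smallest this design allows. In FPKM, the groups did not overlap for 85.2% of all tested genes. The shares are parts of the same sum, so rises of some lower the others, and RELA itself rose from 32.0 to 37.1 FPKM on average. RELB passed the filter through the treated libraries alone, so the shares are descriptions. The FPKM of NFKB2 was 0.458 ± 0.0381 times that of NFKB1 in vehicle and 2.47 ± 0.125 times in HR-19011 (SD, n = 3), so the order of the precursors was inverted.

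**Figure D2:**
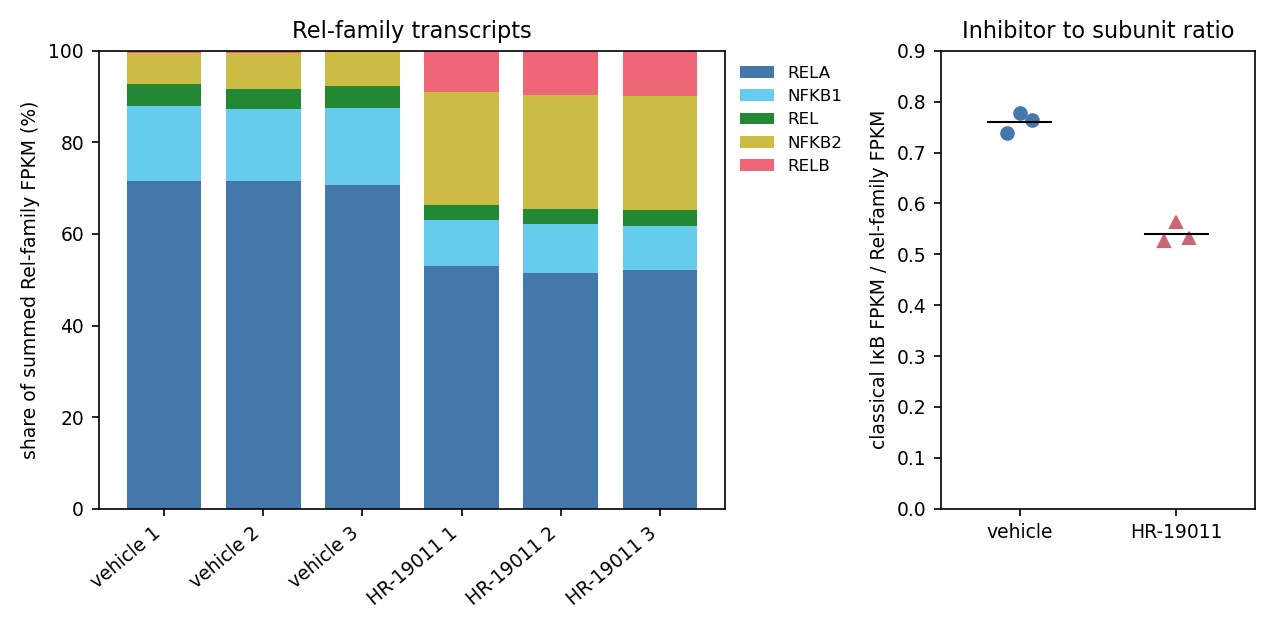
Left, share of each subunit in the summed Rel-family FPKM (percent, stacked) in each of the 6 libraries. Right, summed FPKM of NFKBIA, NFKBIB and NFKBIE divided by that of the 5 subunits, with points for libraries and lines for group means; RELA takes 71.3% of the pool on average in vehicle and 52.2% in HR-19011, and the ratio averages 0.760 and 0.540.

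The classical inhibitors moved in different directions. NFKBIA, encoding IκBα, was listed at 11.8, 12.0 and 11.1 FPKM in vehicle and 14.4, 15.0 and 13.8 FPKM in HR-19011. The groups did not overlap, with a mean 1.24-fold rise (log2 fold change 0.29, SE 0.0444, limma adjusted p = 0.000239) that shrank to 0.05 and was no longer called after TMM scaling (limma adjusted p = 0.324). NFKBIE, encoding IκBε, had 4.89, 5.38 and 4.62 FPKM in vehicle and 9.44, 9.95 and 9.30 FPKM in HR-19011. All treated libraries were higher, 1.93-fold on average (log2 fold change 0.83, SE 0.0552, limma adjusted p = 7.56e-07).

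NFKBIB, encoding IκBβ, was listed at 16.3, 17.9 and 18.3 FPKM in vehicle and 13.9, 14.9 and 14.5 FPKM in HR-19011. It fell in all treated libraries, 1.21-fold on average (log2 fold change -0.26, SE 0.0488, limma adjusted p = 0.000836), and stayed below 0 under each scaling. NFKBIB had been above NFKBIA in all vehicle libraries, and in HR-19011 their ranges overlapped, with means of 14.4 FPKM for both.
Summed over these 3 genes, IκB transcripts came to 34.1 ± 1.14 FPKM in vehicle and 38.4 ± 1.21 in HR-19011 (SD, n = 3). Divided by the summed FPKM of the 5 subunits, this was 0.738, 0.779 and 0.763 in vehicle and 0.526, 0.563 and 0.531 in HR-19011. The ratio was lower in every treated library (exact two-sided permutation p = 0.1, the smallest possible). The IκB sum itself was higher in every treated library, and the ratio fell because the subunit sum rose more, from 44.9 to 71.1 FPKM on average. That sum includes NFKB2, which rose from 3.35 to 17.7 FPKM, and RELB, from 0.155 to 6.74 FPKM. RELB passed the filter through the treated libraries alone, so the ratio is a description. NFKBIA set against RELA alone gave the opposite direction, 0.363 ± 0.0103 in vehicle and 0.388 ± 0.0200 in HR-19011 (SD, n = 3).

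NFKBIZ encodes a nuclear IκB-like protein that acts on target promoters. It was listed at 0.802, 0.689 and 0.680 FPKM in vehicle and 6.91, 5.96 and 6.67 FPKM in HR-19011. The groups did not overlap, and the mean went from 0.724 to 6.51 FPKM (log2 fold change 2.12, SE 0.0667, limma adjusted p = 3.55e-06 with no filter). TNFAIP3, a ubiquitin-editing enzyme that shuts off signalling upstream of IKK, went from 2.28, 2.26 and 2.71 FPKM in vehicle to 24.4, 26.1 and 23.0 FPKM in HR-19011. The log2 fold change was 2.90 (SE 0.0648, limma adjusted p = 8.28e-10), and the ratio of means was 10.2-fold. It was the largest of the 10 on the log2(FPKM + 1) scale, whereas RELB was larger with a pseudocount of 0.1 (4.78 against 3.29) and as TPM (3.67 against 3.24). TNFAIP3 amounted to 0.209 ± 0.0313 times the FPKM of NFKBIA in vehicle and 1.70 ± 0.0418 times in HR-19011 (SD, n = 3). TNFAIP3 lies on chromosome 6 from 137866349 to 137883312 and NFKBIZ on chromosome 3 from 101827990 to 101861022.

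The sources used here do not say whether counting used strand, and RefSeq spans of other genes overlap 5 of the 10. The overlapping genes with a row in the files were low. WAKMAR2, which overlaps TNFAIP3, went from 0.129 ± 0.0426 to 0.877 ± 0.0870 FPKM with treatment, and NXPE3, which overlaps NFKBIZ, from 0.313 ± 0.0262 to 0.691 ± 0.0330 FPKM (SD, n = 3). RELA-DT and NFKB1-AS1 stayed below 1 FPKM on average in both groups. NFKB2, RELB, NFKBIA, NFKBIB and NFKBIE have no overlapping RefSeq gene.

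In order of level, vehicle cells ran RELA, NFKBIB, NFKBIA, NFKB1, NFKBIE, NFKB2, TNFAIP3, REL, NFKBIZ and RELB, and no neighbours overlapped in their library ranges. In HR-19011 the order was RELA, TNFAIP3, NFKB2, NFKBIB, NFKBIA, NFKBIE, NFKB1, RELB, NFKBIZ and REL. There the ranges of NFKBIB and NFKBIA overlapped, as did those of NFKB1 and RELB and of RELB and NFKBIZ. TNFAIP3 moved from rank 7 to rank 2 and NFKB2 from rank 6 to rank 3. Across the 6 libraries the tested genes most like TNFAIP3 by Pearson correlation of log2(FPKM + 1) were ZEB1 (r = 0.99998), EDEM2 (r = 0.99995) and ETS1 (r = 0.99990). Those values describe 2 groups of libraries, and 20.2% of the other tested genes had r of at least 0.99 with TNFAIP3. ZEB1 and ETS1, at 0.924 and 0.153 FPKM in vehicle, passed the filter through the treated libraries alone.

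Calls of the small changes depended on scaling. The median over all tested genes shifted on the log2 scale by -0.22 under TMM scaling, -0.12 under quantile normalization and 0.12 as TPM, and the higher share of all called genes went from 55.0% to 40.1%, 46.3% and 62.2%. After TMM scaling 5 of the 10 genes were higher (NFKB2, RELB, NFKBIE, NFKBIZ and TNFAIP3) and 2 lower (NFKB1 and NFKBIB), against 34.1% and 51.0% of all tested genes. Under quantile normalization 7 were higher and 3 lower (NFKB1, REL and NFKBIB), against 38.8% and 45.0%. Against a 1.5-fold change, the same 5 were called higher and 0 lower, beside backgrounds of 18.6% and 12.8%. 

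**Figure D3:**
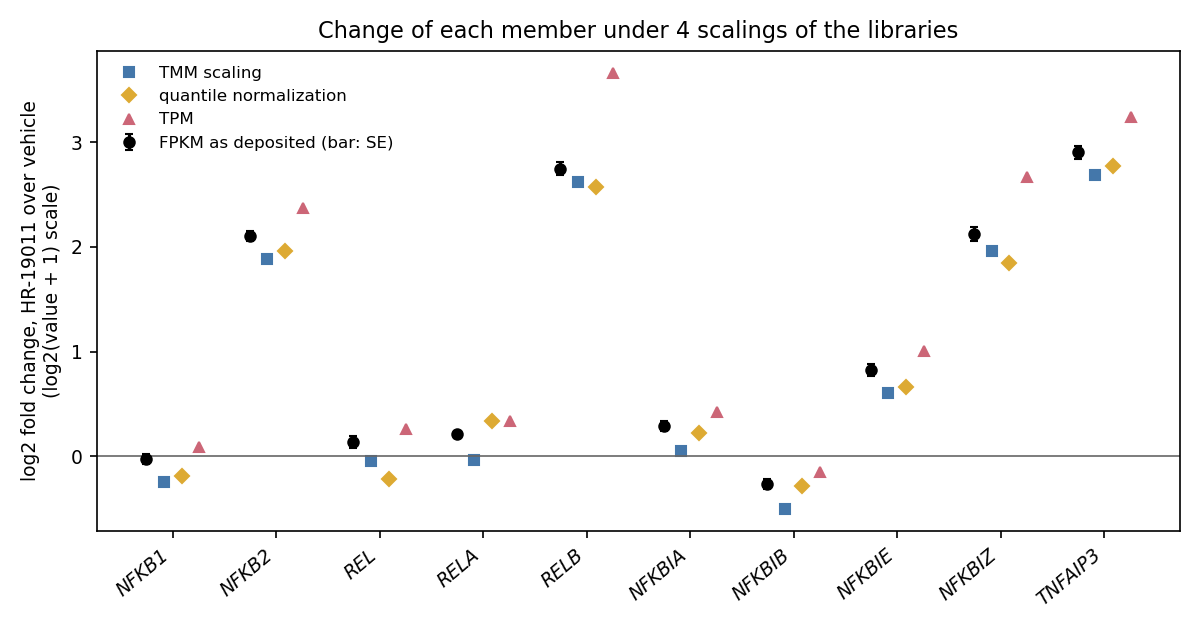
Log2 fold change of each gene, HR-19011 over vehicle on the log2(value + 1) scale, for FPKM as deposited (circles, bars are SE), TMM scaling (squares), quantile normalization (diamonds) and TPM (triangles). NFKB2, RELB, NFKBIE, NFKBIZ and TNFAIP3 lie above 0 under all 4, NFKBIB lies below 0, and NFKB1, REL and RELA cross 0.

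Among the receptors that signal to NF-κB, 5 of 13 passed the filter and all 5 were called higher, against 46.4% of all tested genes. Their median change was 1.28 on the log2 scale, which is the value of IL18R1. That gene passed the filter through the treated libraries alone, so the counts and median of this list are descriptions. TNFRSF1A, the main TNF receptor, went from 8.29 ± 0.212 to 33.2 ± 2.05 FPKM, and TNFRSF12A, the receptor for TWEAK and a known activator of the NIK-driven arm, from 9.88 ± 0.696 to 34.8 ± 1.71 FPKM (SD, n = 3). IL18R1, an IL-18 receptor chain that passed the filter through the treated libraries alone, went from 0.773 ± 0.0753 to 3.31 ± 0.0604 FPKM. TNFRSF1B, the second TNF receptor, rose 1.21-fold, and LTBR, the lymphotoxin receptor, rose from 29.1 to 34.8 FPKM. Both calls were lost after TMM scaling (log2 fold changes 0.02 and 0.0021), which left 3 of the 5 called, against 34.1% of all tested genes. TLR4, the endotoxin receptor, was listed at 0 in all 6 libraries.

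Of the 13 genes of the IKK complex and its activating kinases, 9 rose and 2 fell, with a median of 0.43. All 13 were tested, and the 11 calls are near the background of 84.4% of all tested genes, with 46.4% higher and 38.0% lower. No gene of this list changed 2-fold on the log2(FPKM + 1) scale, where IKBKE, an IKK-related kinase singled out after its values were seen, reached 0.90 (SE 0.0826, limma adjusted p = 6.74e-06). Its mean FPKM went from 1.12 to 2.96, a ratio of 2.65. CHUK, the IKK subunit that acts on the NFKB2 precursor, fell from 12.7 ± 0.526 to 8.01 ± 0.208 FPKM (SD, n = 3). RIPK2, a kinase downstream of the NOD receptors, rose 1.82-fold, and TAB3 and TAB2, adaptors of the kinase TAK1, rose to 12.2 and 17.5 FPKM from 7.93 and 11.7. After TMM scaling 4 genes of this list were lower, against 51.0% of all tested genes. MAP3K14, which encodes NIK and was chosen after its values were seen, went from 1.58, 1.94 and 1.74 FPKM in vehicle to 3.40, 3.15 and 3.49 FPKM in HR-19011. All treated libraries were above all vehicle libraries (log2 fold change 0.66, SE 0.0649, limma adjusted p = 1.1e-05).

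Among adaptors and ubiquitin machinery 9 of 17 were called higher and 6 lower, with a median of 0.18, shares near the 46.4% and 38.0% of all tested genes. RBCK1, a subunit of the ligase that builds linear ubiquitin chains, rose 5.39-fold, from 13.5 ± 0.527 to 72.9 ± 3.41 FPKM (SD, n = 3). UBE2N, the conjugating enzyme used by TRAF6, fell 2.40-fold, CUL1, the scaffold of the ligase that marks IκB for destruction, 1.78-fold, and IRAK1, a kinase of interleukin-1 signalling, 1.52-fold. TRAF2, TRAF3, BIRC2 and BIRC3 encode the complex that keeps NIK levels low, and they were also chosen after values were seen. They did not share a direction. TRAF3 was at 5.83, 5.92 and 6.01 FPKM in vehicle and 4.43, 4.40 and 4.25 FPKM in HR-19011. It fell in every treated library (log2 fold change -0.37, SE 0.0416, limma adjusted p = 2.92e-05). TRAF2 fell from 21.5 ± 0.454 to 11.9 ± 0.618 FPKM (SD, n = 3). BIRC2, a ligase of the complex, rose from 7.70 ± 0.402 to 11.7 ± 0.0616 FPKM (SD, n = 3). BIRC3, its relative, lay below the filter and was not tested.

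Of 17 other IκB-family members and negative regulators, 14 were tested, and 9 rose and 1 fell, with a median of 0.38. The background was 46.4% higher, 38.0% lower and 84.4% in either direction. BCL3, a nuclear IκB-like partner of the NFKB1 and NFKB2 products, went from 0.270 ± 0.182 to 3.84 ± 0.253 FPKM, and CYLD, a deubiquitinase, from 0.698 ± 0.0724 to 2.69 ± 0.216 FPKM (SD, n = 3). Both passed the filter through the treated libraries alone, so the counts and median of this list are descriptions. TAX1BP1, a partner of the TNFAIP3 protein, rose 2.13-fold. NKRF, a repressor that binds some NF-κB promoters, fell 1.97-fold, from 15.3 ± 0.305 to 7.76 ± 0.281 FPKM (SD, n = 3). The number lower became 3 without vehicle replicate 1, and also under TMM scaling and quantile normalization. Under these 2 scalings 51.0% and 45.0% of all tested genes were lower.

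Of 32 known target genes outside the 10, only 13 passed the filter, and 12 of these were called higher and 1 lower, with a median of 1.57, against 46.4% and 38.0% of all tested genes. CXCL8 and GADD45B passed it through the treated libraries alone, so this count and median are descriptions. The chemokine CXCL8 was listed at 0.798, 0.808 and 0.621 FPKM in vehicle and 155, 132 and 141 FPKM in HR-19011. IER3, an early-response survival gene, rose 21.2-fold to 119 ± 9.41 FPKM, and CSF1, a macrophage growth factor, 6.88-fold to 9.91 ± 0.577 FPKM (SD, n = 3). With no filter 22 of the targets were called higher and 1 lower, against 33.5% and 18.5% of 26374 genes. SOD2, the mitochondrial superoxide dismutase and a standard NF-κB target, went the other way, from 22.0, 31.7 and 33.2 FPKM in vehicle to 8.91, 11.0 and 13.4 FPKM in HR-19011. The SOD2 groups did not overlap in spite of their wide spread (log2 fold change -1.30, SE 0.167, limma adjusted p = 7.11e-05).

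**Figure D4:**
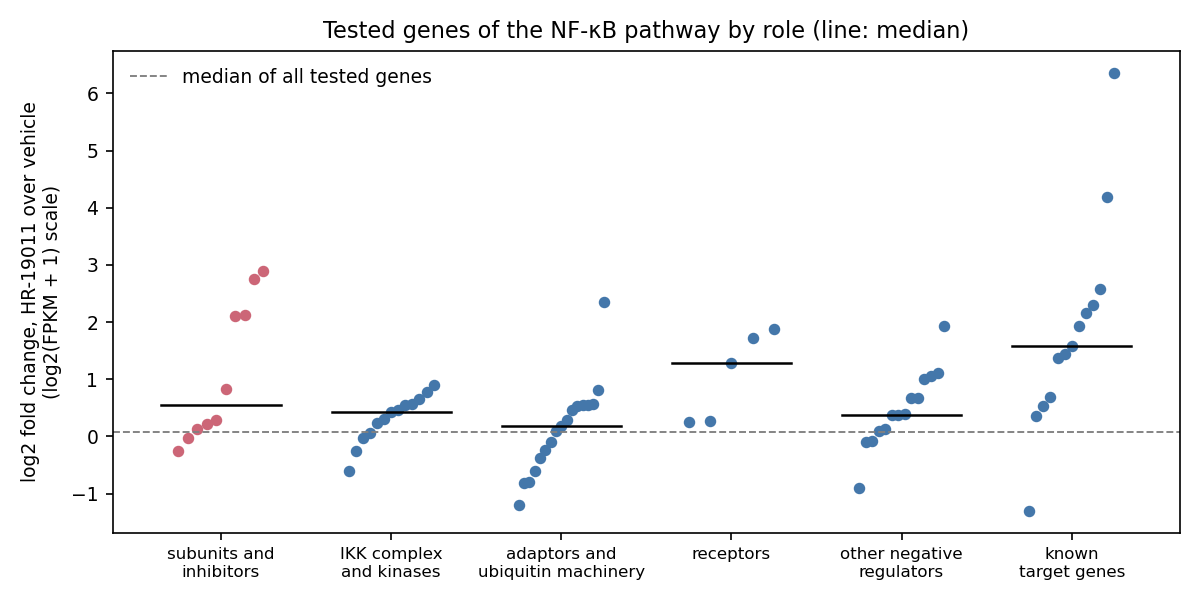
Log2 fold change, HR-19011 over vehicle on the log2(FPKM + 1) scale, of each tested gene by role, with a line at each list's median and a dashed line at the median of all tested genes, 0.07. Medians run from 0.18 for adaptors and ubiquitin machinery to 1.57 for known target genes.

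Summed FPKM lay between 456639 and 467595 in vehicle and between 420661 and 427819 in HR-19011, and mitochondrially encoded transcripts took 20.0% to 21.0% and 13.9% to 14.4% of it. All 9 erythroid markers of this line were expressed, with GATA1 at 140 to 142 FPKM in vehicle and 73.0 to 73.3 FPKM in HR-19011. Of the 9, 8 were called lower after treatment, against 38.0% of all tested genes called lower and 84.4% called in either direction. The summed level of all 9 ran from 4325 to 4402 FPKM in vehicle and from 1703 to 1800 FPKM in HR-19011. Of 6 monocyte and macrophage markers 2 passed the filter (LYZ and CD68), and both were called higher. The summed level of the 6 was 27.6 to 28.0 FPKM in vehicle and 39.1 to 41.8 FPKM in HR-19011. Below the filter, mean CD14 was lower in HR-19011 (0.202 to 0.0755 FPKM) and mean ITGAM higher (0.0443 to 0.130 FPKM). CSF1R and FCGR3A were listed at 0 in each vehicle library and reached at most 0.0170 FPKM after treatment. Of 7 T and B cell markers 1 passed (CD3D), with sums of 6.72 to 9.58 and 12.7 to 13.2 FPKM, and CD2, LCK and MS4A1 were listed at 0 in all 6 libraries. Of 7 stromal and endothelial markers 1 passed (PECAM1), with sums of 1.47 to 1.64 and 1.86 to 2.28 FPKM, and PDGFRA, LUM and CDH5 were listed at 0 throughout. Below the filter, mean COL1A2 was lower in HR-19011 (0.364 to 0.154 FPKM) and mean COL1A1 higher (0.0711 to 0.320 FPKM). Whether the change of these markers with treatment had a part in the values of the 10 genes was not tested.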

How the data were processed

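The 6 files hold gene-level FPKM, a unit already divided by the authors by length and library size, per the file headers. The kit, per the labels' protocols, was a stranded mRNA kit. Tools listed in the submitters' processing notes, with no role given, include StringTie 2.1.3b, HISAT2 2.1.0, Trimmomatic 0.38, SAMtools 1.9 and DESeq2 1.24.0, with the build GRCh38. Depth is unknown: in short single-transcript genes the best common step made 25.7% to 29.6% of low values whole multiples (tolerance 0.1), depending on the library, so reads were not recovered.

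The filter kept 11856 genes that averaged 1 FPKM or more. Their log2(FPKM + 1) values entered limma 3.58.1 (R 4.3.3), group alone as term, a mean-variance trend and two-sided tests, with Benjamini-Hochberg adjustment. Folds without log2 are ratios of mean FPKM. Libraries shared at most 0.0244% identical nonzero values, so none was a repeat of another. The 10 genes, the lists and the tests were chosen with earlier results of these data known. Genes named were the 10, up to 4 of each list by smallest p with both directions where called, and the 3 most like the gene with the largest change on this log2 scale. Other names (MAP3K14, IKBKE, LTBR, TRAF2, TRAF3, BIRC2, GADD45B, TLR4, CD14, ITGAM, COL1A1, COL1A2, overlapping genes and the low genes in the closing section) and the TGATGNAA motif were chosen after values were seen. The settings varied were the pseudocount (0.1 or 5), the filter (none, or 5 FPKM), TMM scaling (own code, trimming 30% and 5%), TPM, quantile normalization, equal totals without mitochondrial and globin genes, no trend, replicate blocking, leaving libraries out singly, the threshold (0.01) and testing against 1.5-fold. The test was tried on simulated data. Coordinates and start windows are from RefSeq on GRCh38.p14; stretches inside GENCODE 29 exons were kept to 30 bases.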

Additional observations from a re-analysis of the deposited data

How the results depend on the processing

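NFKB2, NFKBIE and TNFAIP3 kept direction and call in 18 of 18 alternatives, and RELB and NFKBIZ, which pass the filter through the treated libraries alone, in 17 of 17, with ranges of 1.44 to 2.37, 0.55 to 1.01, 1.99 to 3.29, 1.19 to 4.78 and 1.01 to 3.01 on the log2 scale. NFKBIB kept both except against 1.5-fold (-0.26, not called), where RELA (0.21), NFKBIA (0.29) and REL (0.13) were not called either. NFKB1 was called at -0.25 under TMM and -0.19 under quantile normalization, reversed as TPM (0.09) and ranged from -0.06 to 0.01 with a library left out. RELA (-0.04) and REL (-0.04) reversed under TMM, where NFKBIA was 0.05 and not called, and REL reversed under quantile normalization (-0.22). REL lost its call with equal totals (0.12), a pseudocount of 0.1 (0.19), no filter (0.13), a threshold of 0.01 (0.13), the replicate block (0.13) and each library left out (0.10 to 0.15). The cause was not tested.

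Genes higher numbered 5 of 10 under TMM and against 1.5-fold (5 called in all, 0 lower). Genes lower numbered 2 under TMM and 3 under quantile normalization. With a mean of at least 5 FPKM, REL, RELB and NFKBIZ were untested, and 5 of the remaining genes were higher. Over all genes, 1.5-fold left 3716 calls (2201 higher, 1515 lower). No filter gave 8828 higher of 26374 tested genes, and at least 5 FPKM gave 3347 of 8083. In the lists, TMM gave 4 kinases lower, 3 receptors higher and 3 negative regulators lower, while 51.0% of all tested genes were lower and 34.1% higher. Quantile normalization and equal totals also gave 3 negative regulators lower, and leaving out a library 1 to 3. Over all 11856 tested genes, quantile normalization gave 45.0% lower, equal totals 4611 genes, and leaving out a library 4345 to 4452. No filter gave 10 receptors and 22 targets higher, against 33.5% of 26374 genes. Against 1.5-fold, 2 kinases, 2 adaptors, 3 receptors and 4 negative regulators were higher, 0 kinases and 3 adaptors lower. Of all tested genes 18.6% were then higher and 12.8% lower. With FPKM + 1 the share differences were 15.8 points for NFKB2, -1.74 for REL, -16.0 for RELA and 7.86 for RELB, and NFKBIA over RELA alone reversed the inhibitor ratio (0.0252). Allowing 1 mismatch, 12 of 14 windows (85.7%) matched, against 69.4% of all windows. The replicate block changed no call among the 10 genes other than REL; same-numbered libraries did not deviate together (r from -0.11 to 0.00), so the numbers were not taken as pairs. Of the genes named outside the rule, LTBR lost its call under TMM, and LTBR, MAP3K14, TRAF3 and BIRC2 against 1.5-fold, while TRAF2 and IKBKE kept theirs in each alternative run. Depth is unknown, which limits low values such as RELB in vehicle.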

Other observations

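Several cytokine and signalling genes that NF-κB is known to induce lay below the filter and were not tested; a listed 0 can be a failed estimate. TNF, encoding the cytokine, was listed at 0 in the 3 vehicle libraries and at 2.31, 1.43 and 1.35 FPKM in HR-19011. TRAF1, an adaptor of TNF receptors, was listed at 0 in vehicle and at 0.319, 0.307 and 0.289 FPKM, and BIRC3, a ubiquitin ligase of the same complexes, at 0.0104 to 0.0120 FPKM in vehicle and 0.129 to 0.153 FPKM in HR-19011. IL6 was listed at 0.211, 0.201 and 0.381 FPKM in vehicle and 0.865, 0.945 and 1.04 FPKM in HR-19011. CD40, a receptor of the NIK-driven arm, was listed at 0.247 to 0.525 FPKM in vehicle and 1.46 to 1.75 FPKM in HR-19011. These 5 were chosen after values were seen. Of all 27 receptors and known targets below the filter, 15 had every treated library above every vehicle library, 0 had every one below, 7 overlapped (BCL2A1, CCL2, MMP9, PTGS2, PTX3, TLR2 and TLR3) and 5 were listed at 0 throughout. Of 14518 genes below the filter that were not at 0 throughout, 29.2% had every treated library above. CCL2 and PTX3 had lower means in HR-19011, 0.181 against 0.100 FPKM and 0.0533 against 0.0476 FPKM. IL1B, CCL20, VCAM1 and SELE were listed at 0 in all 6 libraries.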
